A study of Mus musculus with 18 samples.

Results

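The promoters of the axon guidance ligands and receptors were chosen by gene name: the semaphorins and plexins, the ephrins and Eph receptors, the Slits and Robos, and the netrins with the Unc5 receptors, leaving out Ntn4. The rule found 67 genes of 24166 in the count table, of which 66 code for protein and 1, Plxna4os1, is an antisense RNA of the plexin gene Plxna4. They comprise 20 semaphorins, 9 plexins, 14 Eph receptors, 8 ephrins, 3 Slits, 3 Robos, 5 netrins and 4 Unc5 receptors. Where a gene had several windows, the window with the highest mean count was used, and all 67 passed the filter on low counts in every fit.

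Axon guidance proteins steer growing axons and, in the adult brain, act at synapses and on dendrites. Slits are secreted repellents read by Robo receptors; netrins attract through Dcc and repel through the Unc5 receptors, while the netrin-G proteins are membrane-anchored and bind synaptic adhesion partners. Class 3 semaphorins are secreted and mostly signal through neuropilins and plexins, the other semaphorins of vertebrates are anchored in the membrane, and ephrins are membrane-bound ligands that signal into the Eph cell and back into their own.

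The measurement was ATAC-seq, in which a transposase cuts accessible chromatin, read as counts in a window of 1 kb on each side of each annotated transcription start (mouse build mm9). The 18 libraries came from C57BL/6J mice of 2 to 3 months and held 50000 sorted nuclei each. In 8 of them, nuclei were gated on GFP from mice in which somatostatin (SOM+) cells carry an H2B-GFP nuclear tag, from the central amygdala (CeA) or from tissue labelled cortex, which the protocol calls PFC, after fear conditioning or as controls, with 2 libraries in each of the 4 groups. The other 10 are labelled bulk, with no somatostatin gate, from mice with Erbb4 deleted in SOM+ cells (KO, 3 libraries per region) or from wild types (WT, 2 per region), none of them fear conditioned. WT status rests on the sample titles, because the labelled genotype of those libraries is the same as that of the KO libraries. The labels used here do not give the driver line of tag or deletion, and the protocol speaks of technical replicates, so p-values may measure only technical spread. Because gate and mouse line changed together, they cannot be told apart in any comparison of SOM+ with bulk nuclei. A bulk KO library contains SOM+ and all other nuclei, so the deletion concerns only a part of the nuclei in it.

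Total counts per library ran from 2648959 to 14668694, and 3 counts, taken as the detection floor, corresponded to 0.205 to 1.13 CPM, the library's counts scaled to a common total. Promoters of Y-linked genes went against the labelled sex in 4 of the 18 libraries: CeA KO 2 and cortex KO 2, labelled male, had 0 counts there, and CeA WT 1 and cortex WT 1, labelled female, had 243 and 627. In both regions the mismatch thus crossed KO 2 and WT 1. An exchange of these libraries would match the labelled sexes, so their KO and WT labels are uncertain too. Whether they were exchanged was not tested. Cortex KO 3 stood apart from its group, with a chi-square per degree of freedom of 14.9 and 8.62 against the other 2 libraries, where the other replicate pairs lay between 3.31 and 6.1. The ratio of median CPM at ribosomal protein promoters to that at olfactory receptor promoters, a measure of enrichment over background, was 55.8 to 74.4 in cortex SOM+, 17.4 to 35.6 in CeA SOM+ and 9.57 to 19.0 in bulk libraries. The promoter of Sst, the somatostatin gene itself, overlapped between the gates (11.6 to 26.6 CPM in SOM+ and 7.87 to 25.3 CPM in bulk libraries). Averaged over regions, the 8 GABAergic markers were higher and 8 of 10 glutamatergic markers lower in SOM+ nuclei. Of 10 somatostatin neuron markers, 4 were then higher and 2 lower. Within CeA alone, 4 of 8 GABAergic markers were higher and 5 of 10 glutamatergic markers lower. Of the somatostatin neuron markers, 0 were higher and 1 lower there. The Erbb4 promoter had 26.0 to 41.1 CPM in KO and 33.3 to 45.8 CPM in WT libraries, which does not check the labels because the window need not lie in the deleted part.

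Levels are given as CPM in the promoter window, scaled over all 18 libraries. The log2 fold changes, their SE and the adjusted p come from edgeR's quasi-likelihood test with Benjamini-Hochberg adjustment over all promoters tested. A promoter is called at an adjusted p under 0.05. Per kb of window, the mean level over all libraries ran from 3.86 CPM per kb at Ntng2, a netrin-G gene, to 64.4 CPM per kb at Unc5c, a netrin receptor gene. The highest group mean was that of cortex SOM+ control nuclei for 25 members and that of cortex bulk WT nuclei for 23, as the heat map by library shows.

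**Figure D1:**
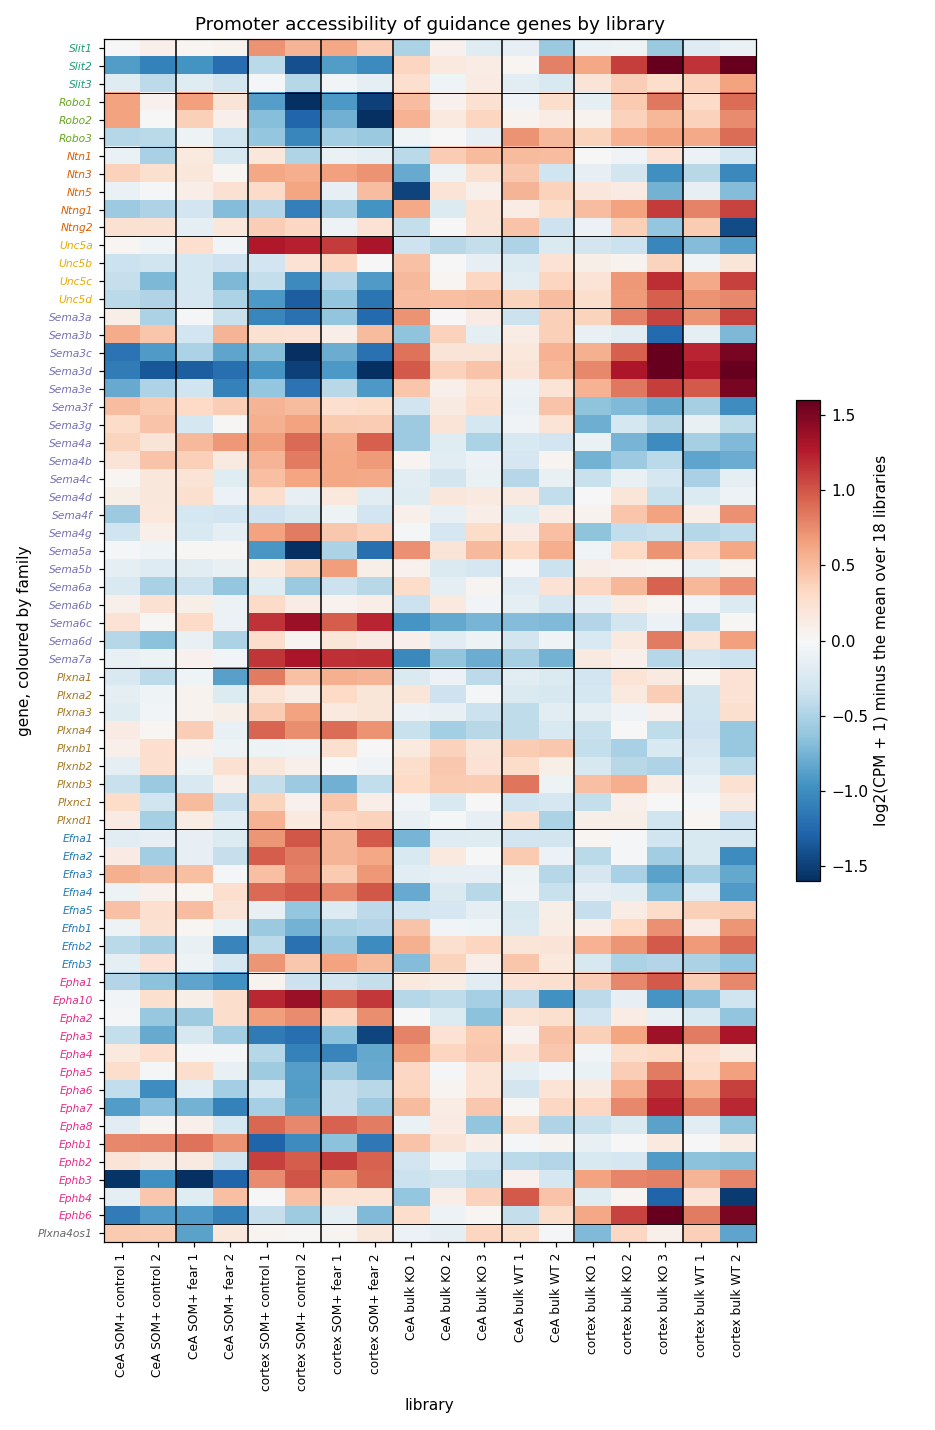
Promoter accessibility of the 67 guidance genes (rows, coloured and ordered by family) in the 18 libraries (columns, in their 8 groups), as log2(CPM + 1) minus the gene's mean over all libraries. Unc5a, Sema6c and Sema7a stand out in the cortex SOM+ columns, Ephb1 in the CeA SOM+ columns, and Sema3c, Sema3d and Slit2 in the cortex bulk columns, most of all in cortex KO 3 and cortex WT 2.

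The first question was which guidance promoters differ between SOM+ and bulk nuclei without fear conditioning or deletion. Averaged over the 2 regions, 19 of 67 members were higher and 26 lower in SOM+ control than in bulk WT nuclei, or 67.2% called, where 61.1% of all 25246 promoters tested were called, 30.6% in each direction. The values of the 2 gates did not overlap for 38.3% of all promoters. The median log2 fold change was 0.14 over the members and -0.07 over all promoters, but the members' median was -0.06 with library totals and -0.19 with cyclic loess, against 0.05 over all promoters in the latter. Markers of other cells moved with the gate: glutamatergic markers summed to 177 to 224 CPM in SOM+ and 232 to 668 CPM in bulk libraries, GABAergic markers to 547 to 686 and 165 to 592 CPM, and 7 of 10 astrocyte and 8 of 11 oligodendrocyte markers were lower in SOM+ nuclei. Their part in the members' differences was not tested. In bulk samples, fewer nuclei of a type and less accessibility per nucleus cannot be told apart. Scaling by library totals, which moves the median of all promoters to -0.27, gave 14 higher and 31 lower members, and no called member changed direction under any of the 4 other scalings or tools.

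Of the 3 Slits, 2 were lower and 1 higher in SOM+ nuclei, of the 3 Robos all were lower, and of the 7 class 3 semaphorins 4 were lower and 2 higher. Sema3d, a class 3 semaphorin (mm9, chr5:12382166-12384165), read 12.9 and 10.8 CPM in CeA SOM+ control, 14.8 and 9.79 CPM in cortex SOM+ control, 33.9 and 43.0 CPM in CeA WT and 73.1 and 119 CPM in cortex WT. Every SOM+ value lay below every bulk value, and the log2 fold change was -2.33 ± 0.21 (SE, adjusted p = 1.35e-11). Slit2, a Robo ligand (chr5:48373394-48375393), read 18.0, 15.6, 25.2 and 12.3 CPM in the same SOM+ libraries and 34.9, 60.9, 77.7 and 120 CPM in the bulk ones. Again the groups did not overlap (log2 fold change -1.95 ± 0.19, adjusted p = 5.33e-11). Slit3 was also lower (-0.44 ± 0.15, adjusted p = 0.0094) and Slit1 higher (0.59 ± 0.17, adjusted p = 0.0027), although Slit1 was not called with library totals or with cyclic loess. In the average over regions, the 3 Robo receptors were lower at every scaling. Robo3, at a low level of 7.0 ± 1.45 against 18.8 ± 2.25 CPM (SD over both regions, n = 4 each), was lower by -1.45 ± 0.21 in log2. Robo1 was lower by -0.81 ± 0.16 and Robo2 by -0.67 ± 0.15. For Robo1 and Robo2 the SOM+ minus bulk difference itself differed between the regions (2.11 and 1.79, CeA minus cortex, both called).

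Of the 7 class 3 semaphorins, Sema3a, Sema3c, Sema3d and Sema3e were lower and Sema3f and Sema3g higher. Sema3c, with a log2 fold change of -2.08 ± 0.21, and Sema3e, the ligand of Plxnd1, with -1.50 ± 0.19, did not overlap between the gates. Among the 13 membrane-anchored semaphorins 6 were higher and 3 lower. Sema7a, which is anchored by a lipid and binds Plxnc1, read 84.6 ± 42.9 CPM in SOM+ against 36.8 ± 5.25 CPM in bulk nuclei (SD, n = 4 each). Each SD is over the libraries of both regions, so it includes the difference between them. The log2 fold change was 1.05 ± 0.14 (adjusted p = 6.9e-08). It was smaller in CeA than in cortex (difference -1.02 ± 0.29, adjusted p = 0.00839 by edgeR's interaction test). Only 2 of the 9 plexins, the semaphorin receptors, were called: Plxna4 was higher (0.86 ± 0.14) and Plxnb3 lower (-0.81 ± 0.24).

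In the ephrin system, 4 of 5 A-type ephrins (Efna1, Efna2, Efna3 and Efna4) were higher in SOM+ nuclei, and 2 of 3 B-type ephrins (Efnb1 and Efnb2) lower. The A-type count depended on the scaling: library totals gave 3 higher and 1 lower, and cyclic loess 2 higher and 1 lower. These averages also hide a dependence on region. Within CeA alone, Efna3 was the only A-type ephrin called higher. The SOM+ minus bulk difference in CeA minus that in cortex was called for Efna1 (-0.96), Efna2 (-1.87), Efna4 (-1.31), Efnb1 (1.29) and Efnb2 (0.90). Of the 14 Eph receptors, which bind ephrins, 3 were higher and 8 lower. Epha10, a member without kinase activity, rose by 1.30 ± 0.16 in log2 and Ephb2 by 1.17 ± 0.15, while Epha3 fell by 1.59 on the log2 scale and Epha7 fell by 1.34. Unc5a was higher (1.21 ± 0.15) and its relatives Unc5c (-1.10 ± 0.16) and Unc5d (-1.40 ± 0.15) lower. Ntng1, the netrin-G1 gene, was lower (-1.28 ± 0.18). Values for Ntn1, the secreted netrin, were -0.41 ± 0.22 (adjusted p = 0.103), so that no difference was detected.

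**Figure D2:**
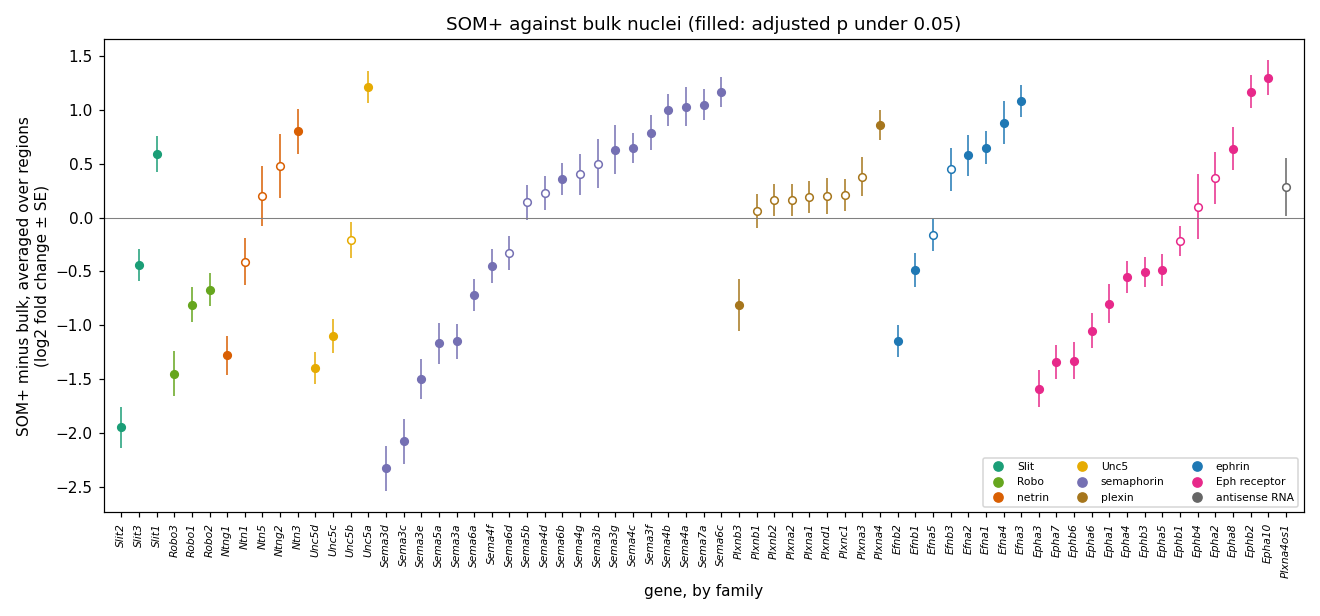
SOM+ control minus bulk WT nuclei, averaged over CeA and cortex, as log2 fold change ± SE (vertical axis) for each of the 67 guidance genes (horizontal axis, by family). Filled points have an adjusted p under 0.05; the Robos lie below 0, and the Slit, Unc5, semaphorin and Eph families each span both sides.

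The difference between the gates depended on the region. Within cortex, 24 members were higher and 26 lower in SOM+ nuclei (74.6%, where 62.1% of all promoters were called), and within CeA 5 were higher and 17 lower (32.8%, where 23.2% were called). Of all promoters, 13.7% were called higher and 9.58% lower within CeA, and 31.5% and 30.6% within cortex. Values did not overlap for 62.5% of all promoters in CeA and 80.7% in cortex, with 2 libraries against 2. The test of the difference between the regions called 34 of 67 members, 17 in each direction, or 50.7%, where 24.7% of all promoters were called, 9.46% higher and 15.2% lower. Library totals gave 22 higher and 14 lower, and cyclic loess 22 and 11. In the same test 5 of 8 GABAergic markers were lower, 5 of 10 glutamatergic markers higher, and of 10 somatostatin neuron markers 5 lower and 1 higher. Enrichment was 58.3 to 74.4 in cortex SOM+ control and 9.57 to 13.1 in cortex WT libraries, and 25.3 to 33.8 and 10.3 to 15.6 in CeA. The part of either in the members' differences was not tested. Robo1 fell by 1.87 in cortex on the log2 scale (SE 0.23) and differed by 0.24 ± 0.22 in CeA, a difference of differences of 2.11 (adjusted p = 1.35e-05). Ephb1, a receptor of B-type ephrins, was lower in cortex SOM+ nuclei (-1.22 ± 0.20) and higher in CeA SOM+ nuclei (0.77 ± 0.20), both called. Unc5a was 2.07 ± 0.21 higher in cortex and 0.35 ± 0.21 in CeA (adjusted p = 0.241 there). Sema3d, Sema3c and Slit2 were called lower in both regions.

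The call counts within CeA and for the difference between regions moved with single libraries. Within CeA, 2 members were higher and 3 lower without CeA SOM+ control 1, where 12.6% of all promoters were called, so that the members' share then lay below that of all promoters. They were 2 and 11 without CeA SOM+ control 2 (12.2% of all promoters), 3 and 7 without CeA WT 1 (9.17%) and 0 and 11 without CeA WT 2 (12.9%). The Ephb1 call in CeA was lost without CeA SOM+ control 2, CeA WT 1 or CeA WT 2 and without the 4 libraries against their labelled sex. For the difference between regions the counts were 17 higher and 10 lower without CeA SOM+ control 1 (17.7% of all promoters), 8 and 11 without CeA SOM+ control 2 (17.3%), 16 and 10 without cortex SOM+ control 1 (18.8%), and 9 and 11 without cortex SOM+ control 2 (15.6%). They were 12 and 9 without CeA WT 1 (17.2%), 10 and 13 without CeA WT 2 (15.9%), 11 and 15 without cortex WT 1 (18.8%), and 13 and 11 without cortex WT 2 (16.7%). Without the 4 libraries that go against their labelled sex, 1 member was higher and 6 lower in CeA (6.17% of all promoters), the difference between regions called 8 higher and 5 lower (10.3%), and 45 of the 45 members called in the average kept their direction, with 37 still called.

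The promoters that carried the largest SOM+ and region differences are shown from RefSeq (GRCm38.p6), 250 bases before to 50 after the start, to show how unlike they are in composition. The table was matched by gene symbol and held 57 of the 67 members. Its coordinates are of another build than the mm9 windows and were not converted. Capitals mark matches, on either strand, to 10 motifs searched. They were GGGCGG (a GC box), the CCAAT box, the TATAAA box, the cAMP response motif TGACGTCA, the E-boxes CAGCTG with CAGATG, the homeodomain motif TAATTA, the AP-1 motif TGANTCA, and the full consensus sites of NFI and of NRF1. Matches may overlap. Sema3d (chr5:12382916-12383215, plus strand) and Slit2 (chr5:47982905-47983204, plus strand) were, with Sema3c, the 3 members furthest below bulk nuclei in SOM+ nuclei; Robo1 (chr16:72662899-72663198, plus strand) and Ephb1 (chr9:102354644-102354943, minus strand) were higher in CeA than cortex SOM+ nuclei; Ephb3 (chr16:21204545-21204844, plus strand), Unc5a (chr13:54949161-54949460, plus strand) and Sema7a (chr9:57939862-57940161, plus strand) were higher in cortex SOM+ nuclei.
Sema3d: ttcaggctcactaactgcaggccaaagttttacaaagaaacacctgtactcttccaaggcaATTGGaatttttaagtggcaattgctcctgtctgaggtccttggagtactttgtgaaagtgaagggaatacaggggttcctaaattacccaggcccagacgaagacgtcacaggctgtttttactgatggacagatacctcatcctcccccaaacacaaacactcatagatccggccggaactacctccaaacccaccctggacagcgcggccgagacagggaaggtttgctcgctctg
Slit2: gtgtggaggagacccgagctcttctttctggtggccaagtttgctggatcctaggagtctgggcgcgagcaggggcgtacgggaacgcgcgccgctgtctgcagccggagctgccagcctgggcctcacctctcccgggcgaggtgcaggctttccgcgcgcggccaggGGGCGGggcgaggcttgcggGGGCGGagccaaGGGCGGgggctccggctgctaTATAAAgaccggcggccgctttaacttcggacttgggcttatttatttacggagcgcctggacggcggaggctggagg
Robo1: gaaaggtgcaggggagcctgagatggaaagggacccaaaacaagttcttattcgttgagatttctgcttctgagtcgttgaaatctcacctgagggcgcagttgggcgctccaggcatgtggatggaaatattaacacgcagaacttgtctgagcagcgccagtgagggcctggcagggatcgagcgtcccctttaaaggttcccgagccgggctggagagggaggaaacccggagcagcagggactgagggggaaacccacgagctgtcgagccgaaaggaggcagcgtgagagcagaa
Ephb1: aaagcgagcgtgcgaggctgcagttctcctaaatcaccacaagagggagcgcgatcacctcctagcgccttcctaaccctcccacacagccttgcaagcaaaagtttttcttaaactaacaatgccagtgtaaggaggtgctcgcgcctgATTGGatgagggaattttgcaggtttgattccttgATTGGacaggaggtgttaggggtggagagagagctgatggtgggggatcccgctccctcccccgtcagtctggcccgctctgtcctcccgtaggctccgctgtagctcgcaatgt
Ephb3: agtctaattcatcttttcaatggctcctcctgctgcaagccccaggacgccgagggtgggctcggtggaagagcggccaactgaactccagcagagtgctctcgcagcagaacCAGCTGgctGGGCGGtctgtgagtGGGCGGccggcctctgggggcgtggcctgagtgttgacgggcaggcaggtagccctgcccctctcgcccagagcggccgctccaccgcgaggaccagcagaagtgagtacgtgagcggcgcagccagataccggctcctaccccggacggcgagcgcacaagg
Unc5a: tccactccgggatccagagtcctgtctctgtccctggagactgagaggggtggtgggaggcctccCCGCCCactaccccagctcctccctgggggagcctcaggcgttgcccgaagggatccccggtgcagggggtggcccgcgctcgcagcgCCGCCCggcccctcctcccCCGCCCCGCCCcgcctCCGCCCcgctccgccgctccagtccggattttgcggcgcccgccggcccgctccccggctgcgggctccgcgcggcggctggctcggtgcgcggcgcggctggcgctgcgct
Sema7a: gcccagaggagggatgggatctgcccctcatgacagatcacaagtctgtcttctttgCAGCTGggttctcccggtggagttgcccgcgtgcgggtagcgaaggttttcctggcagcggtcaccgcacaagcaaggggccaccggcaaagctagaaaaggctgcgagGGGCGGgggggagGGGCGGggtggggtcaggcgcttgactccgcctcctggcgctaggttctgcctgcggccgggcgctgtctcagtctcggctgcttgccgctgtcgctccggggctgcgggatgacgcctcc
A match is a description of the letters, not a binding site. GGGCGG stood in 69.9% of the 73 member promoters and in 35.7% of all 32851 promoters of that length in the table. TATAAA stood in 2.74% of member promoters and 13.6% of all, CCAAT in 28.8% and 37.4%, CAGCTG in 15.1% and 16.3%, and CAGATG in 8.22% and 17.2%. For the others the shares were 4.11% and 5.29% for TAATTA, 4.11% and 7.81% for TGANTCA, and 1.37% and 1.79% for TGACGTCA. Neither the NFI consensus (0.0365% of all) nor that of NRF1 (0.971% of all) stood in a member promoter. The median GC content was 64.0% over the member promoters and 52.7% over all. Within the members it was 60.7% for the promoters of those higher and 66.8% for those lower in CeA than cortex SOM+ nuclei, and GGGCGG stood in 38.5% and 80.8% of them. These were 13 promoters of 11 genes and 26 promoters of 21 genes, matched by gene and not by window. Robo2, with 1 window, entered the higher set with 3 promoters, of 65.0%, 45.0% and 53.3% GC and all without GGGCGG, so it weighs on both shares. Sema3a, with 2 windows, entered it with 1 promoter of 41.3% GC, also without GGGCGG. In the lower set Efna1, Sema4b, Sema4c, Sema6c and Sema6d entered with 2 promoters each, of which at least 1 per gene held GGGCGG. Of those printed, Sema3d had 49.7% GC and Unc5a 78.3%. Base composition differed between these sets of promoters, some of which need not be those of the windows counted. Its part in the accessibility differences was not tested.

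The second question was how the guidance promoters differ between CeA and cortex within SOM+ nuclei. Over the 4 CeA and 4 cortex SOM+ libraries, controls and fear conditioned together, 12 of 67 members were higher and 25 lower in CeA, or 55.2%, where 48.3% of all 25157 promoters tested were called, 21.1% higher and 27.1% lower. Values did not overlap for 43.7% of all promoters. The median was -0.11 over the members and 0.04 over all promoters, but the members' median was 0.11 with library totals and 0.02 with cyclic loess, against -0.02 over all promoters in the latter. Library totals, which move the median of all promoters to 0.26, gave 15 higher and 18 lower, and cyclic loess 14 and 16. No called member changed direction under any of the 4 other scalings or tools. The CeA SOM+ libraries also had the lower enrichment over background given above. Of 10 somatostatin neuron markers, 6 were lower and 1 higher than in cortex SOM+ nuclei. Other markers moved too: 5 of 10 glutamatergic markers were lower and 1 higher, and 3 of 8 GABAergic markers were lower and 3 higher. Of 8 vascular markers, 4 were higher and 1 lower, and the glial lists held calls in both directions. The part of enrichment or markers in these differences was not tested.

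Receptors for Slits and ephrins led the promoters that were higher in CeA. Robo1 (mm9, chr16:72662394-72664393) read 128, 85.5, 129 and 94.3 CPM in the CeA SOM+ libraries and 43.8, 26.2, 42.7 and 28.4 CPM in the cortex ones. The lowest CeA value was above the highest cortex value, with a log2 fold change of 1.66 ± 0.15 (adjusted p = 8.68e-26). Its neighbour on the chromosome, Robo2 (chr16:74410158-74412157), read 77.0, 49.1, 64.1 and 51.7 CPM in CeA against 30.2, 19.8, 28.4 and 14.2 CPM in cortex, also without overlap (1.42 ± 0.15, adjusted p = 2.51e-19). Robo3 was not called (0.47 ± 0.25, adjusted p = 0.107). Ephb1 (chr9:102256024-102258023) read 125, 127, 135 and 121 CPM in CeA and 29.5, 36.0, 46.1 and 32.7 CPM in cortex. Its log2 fold change of 1.86 ± 0.15 (adjusted p = 8.73e-31) was the largest in this direction among the members. Epha4, which binds both ephrin types, was 0.99 ± 0.15 higher and Epha5 0.87 ± 0.15 higher, with no overlap of values. Among ligands, Sema5a (1.09 ± 0.18), Sema3a (0.90 ± 0.15), Efna5 (0.75 ± 0.15) and Efnb1 (0.66 ± 0.15) were higher in CeA. The Sema5a window shares bases with that of the RNA gene Snhg18, so its counts belong to both.

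**Figure D3:**
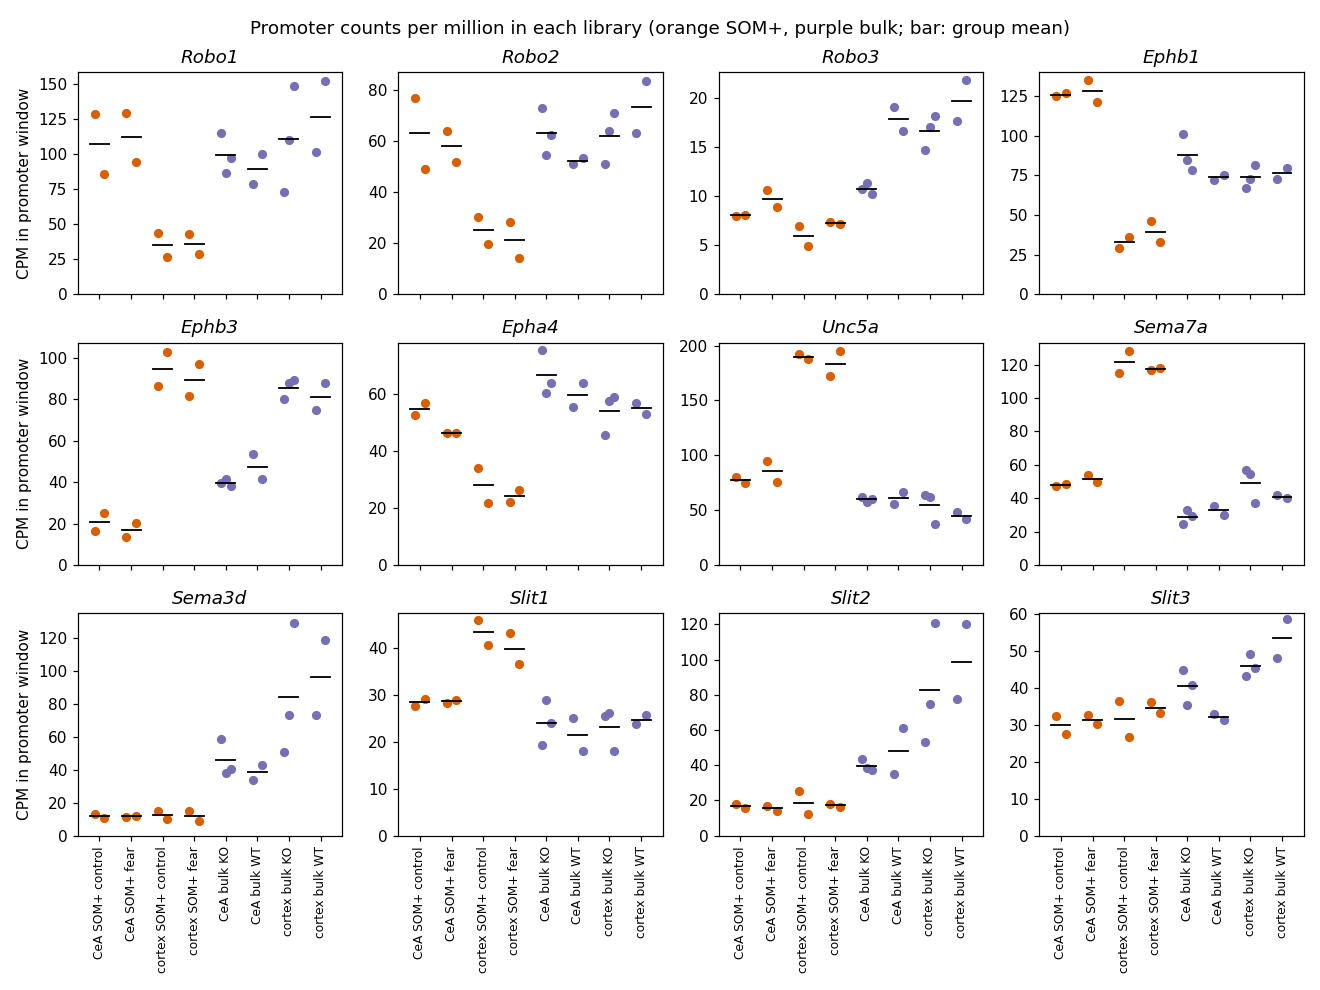
CPM in the promoter window (vertical axis, from 0) of 12 guidance genes in every library of the 8 groups (horizontal axis), with orange points for SOM+ libraries, purple points for bulk libraries and bars for group means. Robo1, Robo2 and Ephb1 are lowest in cortex SOM+ nuclei, Unc5a and Sema7a highest there, and Ephb3 is lowest in CeA SOM+ nuclei.

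Members lower in CeA were led by Ephb3, another receptor of B-type ephrins (chr16:21203868-21205867). It read 16.5, 25.3, 13.4 and 20.3 CPM in CeA and 86.5, 103, 81.7 and 97.2 CPM in cortex SOM+ nuclei, a log2 fold change of -2.29 ± 0.16 (adjusted p = 1.35e-42). The lowest cortex value, 81.7 CPM, lay far above the highest CeA value, 25.3 CPM. Ephb1 and Ephb3, paralogous receptors, thus differed in opposite directions between the same libraries. Sema7a (chr9:57786942-57788941) read 47.3, 48.3, 53.7 and 49.8 CPM in CeA and 115, 128, 117 and 118 CPM in cortex (-1.23 ± 0.15, adjusted p = 7.73e-14). Unc5a (chr13:55049772-55051792) read 80.2, 75.0, 95.2 and 76.0 CPM in CeA and 192, 188, 172 and 195 CPM in cortex (-1.16 ± 0.16, adjusted p = 1.33e-11). Its relative Unc5d was higher in CeA (0.62 ± 0.15) and Unc5b lower (-0.38 ± 0.15), the latter not called with the other scalings or tools. Sema6c (-1.03 ± 0.16), Epha10 (-1.01 ± 0.15), Efna1 (-0.96 ± 0.15), Plxna1 (-0.95 ± 0.15) and Ephb2 (-0.94 ± 0.15) were lower too. Slit1 (-0.51 ± 0.15) and Plxnd1 (-0.41 ± 0.15) were lower but were not called with library totals or cyclic loess, nor Plxnd1 with DESeq2. For Slit2, Slit3, Ntn1, Ntng1 and Ntng2 no difference was called, with adjusted p of 0.178 for Ntng1 and higher for the rest.

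The third question was the same region difference in bulk nuclei. There 8 of 67 members were higher and 20 lower in CeA, or 41.8%, where 16.9% of all 25196 promoters were called, 6.9% higher and 9.98% lower. Values did not overlap for 10.1% of all promoters. The median was -0.08 over the members and 0.03 over all promoters, and the members' median was 0.01 with library totals. Markers of glutamatergic neurons moved with it: 8 of 10 were lower in CeA, with a summed level of 232 to 294 CPM in CeA against 510 to 668 CPM in cortex bulk libraries, and none of the 10 was at 0 in any library. GABAergic markers moved the other way, with 6 of 8 higher and a sum of 402 to 592 against 165 to 190 CPM. Their part in the members' differences was not tested.

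Ephb6 was the member with the largest fold: 96.5, 74.9, 81.1, 60.9 and 96.7 CPM in CeA (KO 1 to 3, then WT 1 and 2) and 122, 169, 244, 142 and 230 CPM in cortex. The groups did not overlap, and the log2 fold change was -1.14 ± 0.16 (adjusted p = 7.05e-05). Ephb3 was lower in CeA in bulk nuclei as well (-0.92 ± 0.12, adjusted p = 2.16e-05), with 39.7, 41.4, 38.1, 53.4 and 41.7 CPM against 80.2, 87.7, 89.3, 74.8 and 87.8 CPM. The 20 lower members comprised 4 class 3 and 5 other semaphorins, 6 Eph receptors, 2 Slits, 1 ephrin, 1 netrin and 1 Unc5 receptor. The secreted Slits and class 3 semaphorins among them were Sema3d (-1.06 ± 0.19), Slit2 (-1.04 ± 0.17), Sema3e (-0.90 ± 0.14), Sema3c (-0.85 ± 0.18), Sema3a (-0.66 ± 0.16) and Slit3 (-0.44 ± 0.13). All of these but Slit3 had their 2 highest values of any bulk library in cortex KO 3 and cortex WT 2. Slit2, for example, read 53.0, 74.7, 121, 77.7 and 120 CPM in the cortex libraries and 43.7, 38.4, 37.3, 34.9 and 60.9 CPM in CeA, which overlap. Higher in CeA were Sema3f (0.88 ± 0.18), the other class 3 semaphorin called, and the plexins Plxnb1 (0.78 ± 0.14) and Plxnb2 (0.64 ± 0.14), receptors of class 4 semaphorins. For Plxnb1 the CeA values of 31.8, 37.1, 32.9, 38.1 and 38.7 CPM lay above the cortex values of 21.6, 19.5, 23.8, 23.4 and 18.4 CPM. No Robo was called in bulk nuclei (Robo1 -0.30 ± 0.16, Robo2 -0.20 ± 0.13, Robo3 -0.36 ± 0.17).

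The bulk counts depended on which libraries were kept. Without the 4 libraries against their labelled sex, all 28 called members kept their direction and 6 were still called, with 1 higher (Sema3f) and 5 lower (Ephb3, Ephb6, Sema3d, Sema3e and Slit2), where 2.56% of all promoters were called. When the Y-linked promoters replaced the labelled sex in the fit, 25 of 28 were still called. Leaving out single libraries gave 5 higher and 14 lower without CeA KO 2 (10.8% of all promoters called), 4 and 13 without CeA KO 3 (10.7%), 4 and 6 without CeA WT 1 (5.6%), 0 and 6 without CeA WT 2 (3.52%), 3 and 6 without cortex WT 1 (5.44%), and 0 and 7 without cortex WT 2 (3.54%).

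Set side by side, the 2 region differences sorted the members into patterns. For 3 members the CeA level was higher in SOM+ and lower in bulk nuclei, all with a called difference of differences, which used the control and WT libraries: Sema3a (0.90 and -0.66), Epha3 (0.66 and -0.56) and Efnb2 (0.33 and -0.46). The reverse held for Efna2 (-0.92 and 0.57), Efnb3 (-0.64 and 0.69), Sema4b (-0.34 and 0.64) and Sema4g (-0.73 and 0.65), again with each difference of differences called. The Sema4b call in SOM+ nuclei was lost under all 4 other scalings or tools, and that of Efnb2 with DESeq2. Without the 4 libraries against their labelled sex, none of these members of opposite direction kept its bulk call. The difference of differences was then still called for Sema3a, Epha3, Efna2 and Sema4g, and lost for Efnb2, Efnb3 and Sema4b. The bulk calls of Epha3, Efnb2, Efna2 and Efnb3 were also lost without CeA KO 2, CeA KO 3 or any single WT library. A further 9 members, among them Robo1, Robo2, Ephb1 and Epha4, were higher in CeA in SOM+ nuclei and not called in bulk nuclei, and the difference was itself called for all 9. Of the 15 that were lower in CeA SOM+ nuclei and not called in bulk, it was called for 9, Unc5a and Ephb2 among them. Lower in both were 6 members: Epha1, Ephb3, Ephb6, Sema6c, Sema6d and Sema7a. Of these, Ephb3 and Sema6c kept both calls under the 4 other scalings or tools. Epha1 lost its SOM+ call with library totals, cyclic loess and DESeq2 and its bulk call with library totals, Ephb6 its SOM+ call with cyclic loess, Sema6d its bulk call with RLE size factors and cyclic loess, and Sema7a its bulk call with library totals. Of the 11 lower in bulk nuclei alone the difference was called for 5, so that the other 6, Slit2 and Slit3 included, were not shown to differ between the gates. The remaining members were 4 higher in bulk nuclei only and 15 called in neither.

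**Figure D4:**
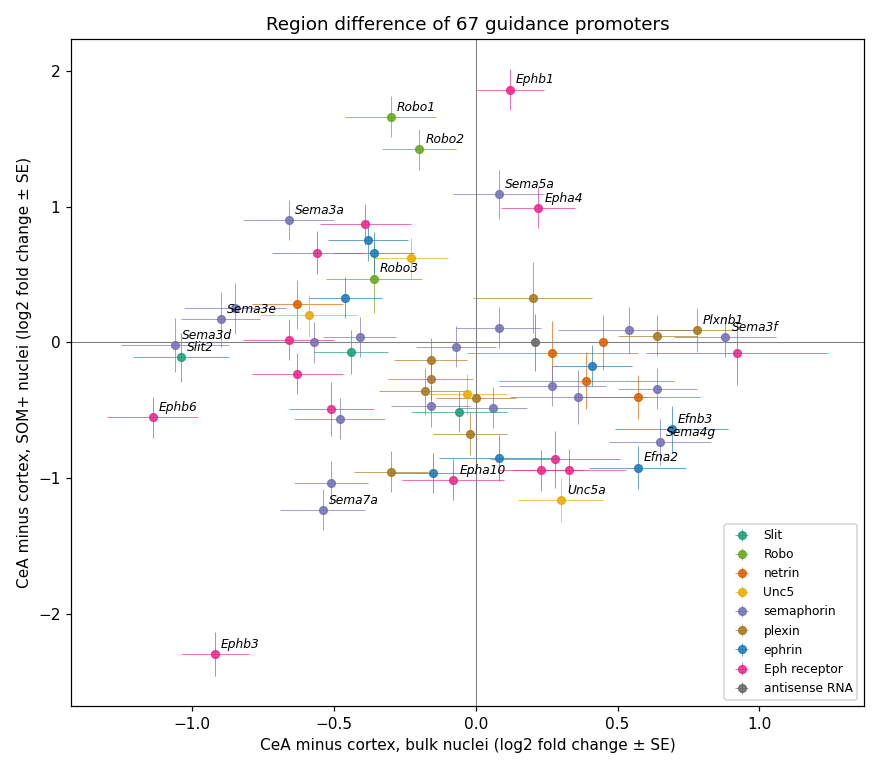
CeA minus cortex log2 fold change ± SE in SOM+ nuclei (vertical axis) against that in bulk nuclei (horizontal axis) for the 67 guidance genes, coloured by family. Ephb1, Robo1 and Robo2 lie far above 0 on the SOM+ axis at bulk values of 0.12, -0.30 and -0.20, and Ephb3 lies below 0 on both.

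For 8 genes, all of them semaphorins except Plxnb2, several windows were counted. Sema6c was lower in CeA SOM+ nuclei at its main window (-1.03 ± 0.16) and at its other one (-0.89 ± 0.20). Sema6b, a class 6 semaphorin, differed at a window other than the one chosen (chr17:56272276-56274275), with 27.8 CPM in CeA and 16.5 CPM in cortex SOM+ nuclei (0.78 ± 0.17, adjusted p = 3.16e-05), while the chosen window gave -0.03 ± 0.15. Sema6d was lower in CeA SOM+ nuclei at its chosen window (-0.56 ± 0.15) and gave 0.06 ± 0.16 and 0.01 ± 0.24 at the other 2. In bulk nuclei the chosen Sema3a window gave -0.66 ± 0.16 and its other window, at a mean of 8.15 CPM in CeA and 5.26 CPM in cortex, 0.69 ± 0.29 (adjusted p = 0.101).

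Other genes of the pathway were read from lists by role, whose counts stand beside the shares of all promoters given above and were not tested. Of 13 co-receptors and further guidance receptors, 7 were higher and 4 lower in SOM+ than bulk nuclei, but 4 and 5 with library totals and 3 and 5 with cyclic loess. Neo1, a netrin receptor, was higher (1.2) and Nrp1, the co-receptor of Sema3a, lower (-0.74). Between regions 2 were higher and 5 lower in CeA SOM+ nuclei, but 6 and 4 with library totals and with cyclic loess. Nrp1 was higher in CeA SOM+ nuclei (1.07, adjusted p = 3.79e-10), as Sema3a was. Of 14 other ligands and partners, 4 were higher and 7 lower in SOM+ nuclei, among them Flrt2, a ligand of Unc5 receptors (-1.69). Between regions in SOM+ nuclei 3 were higher and 4 lower, but 4 and 1 with library totals. Of 41 cytoplasmic effectors, 23 were higher and 7 lower in SOM+ nuclei, against 21 and 8 with library totals and 17 and 10 with cyclic loess, with Cfl1 (cofilin, 1.63) and Rac1 (1.42) among the higher. Between regions in SOM+ nuclei 6 effectors were higher and 19 lower in CeA, but 14 and 15 with library totals and 16 and 14 with cyclic loess. In bulk nuclei between regions the counts were 2 and 5 of the co-receptors (2 and 2 with RLE size factors or library totals), 0 and 2 of the ligands and 4 and 3 of the effectors.

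Fear conditioned and control SOM+ nuclei were compared within each region. No guidance promoter was called, in either region or averaged over them, and none of the 25157 promoters tested was (0.0% called). At an unadjusted p under 0.05 there was 1 member in CeA, 0 in cortex and 0 in the average, beside 598, 288 and 530 of all promoters. DESeq2 and limma on cyclic loess values also called 0 of either. The member values ran from -0.80 to 0.45 in CeA and from -0.36 to 0.47 in cortex in log2, with a median SE of 0.23 and 0.21. Robo1 read 128 and 85.5 CPM in CeA controls and 129 and 94.3 CPM after conditioning, and Ephb1 125 and 127 against 135 and 121. For both, the values of the groups overlapped. The smallest p in CeA belonged to the antisense RNA Plxna4os1, with 13.1 and 12.9 CPM in controls and 4.83 and 10.8 CPM after conditioning (-0.80 ± 0.33, adjusted p = 1). These values do not overlap, which held for 21.5% of all promoters in this comparison of 2 with 2 libraries. In cortex, where values did not overlap for 26.7% of all promoters, the smallest p was that of Sema5a (0.47 ± 0.26, adjusted p = 1), with overlapping values. The difference between the regions called no member or other promoter either, with 1 member and 371 promoters at an unadjusted p under 0.05 and a median SE of 0.31.

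Deletion of Erbb4, a neuregulin receptor, in SOM+ cells was compared with WT in bulk nuclei. No member and no other promoter of 25196 was called, in CeA, in cortex or averaged (0.0% called), and DESeq2 and limma also called 0. At an unadjusted p under 0.05 there were 1, 4 and 3 members, beside 745, 823 and 872 of all promoters. Robo3 had the smallest p among the members in CeA: 10.7, 11.3 and 10.2 CPM in KO and 19.1 and 16.6 CPM in WT, without overlap, as held for 28.7% of all promoters (-0.73 ± 0.28, adjusted p = 0.999). In cortex it was Sema3e, with 31.7, 39.0 and 47.1 CPM in KO and 42.8 and 62.7 CPM in WT, which overlap (-0.63 ± 0.22, adjusted p = 0.945). The median SE over the members was 0.26 in CeA and 0.25 in cortex. The difference between the regions called 0 promoters, with 3 members and 590 promoters at an unadjusted p under 0.05.

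All KO libraries are labelled male and WT 1 female, so the labelled-sex term sets KO mainly against WT 2, although the Y-linked promoters of WT 1 go against its label. If KO 2 and WT 1 were exchanged in each region, the KO and WT groups would each hold a library of the other. The bulk WT groups set against SOM+ nuclei would then be mixed as well, and no fit with these libraries exchanged was run. With no sex term, or with sex from the Y-linked promoters, 0 members in cortex had an unadjusted p under 0.05, and Slit2 there was -0.26 ± 0.27 and -0.22 ± 0.29 in place of -0.59 ± 0.26. The cortex counts also moved with cortex KO 3. Without it and with labelled sex, 9 members were called lower in KO, where 3.91% of all promoters were called: Slit2 (-0.96 ± 0.19, adjusted p = 0.00313), Sema3d (-0.86), Epha3 (-0.80), Sema3e (-0.79), Sema3c (-0.78), Epha6 (-0.73), Robo1 (-0.68), Ephb6 (-0.66) and Sema6d (-0.65). With all libraries the same members gave values from -0.63 to -0.31. In the average over regions, Slit2 alone of the members was then called (-0.76 ± 0.15, adjusted p = 0.00307), where 0.496% of all promoters were. None of these calls held without cortex KO 3 once the sex term was dropped or read from the Y-linked promoters: 0 members were called in cortex and in the average. Slit2 in cortex was then -0.64 ± 0.22 (adjusted p = 0.595) and -0.75 ± 0.26 (adjusted p = 0.837). Over the cortex libraries the summed CPM of the 67 members was 2990, 3650 and 4270 in KO and 3430 and 4180 in WT, so that cortex KO 3 and cortex WT 2 held the highest sums. The same 2 libraries had the highest sums of glutamatergic (625 and 668 CPM), astrocyte (337 and 319 CPM) and oligodendrocyte markers (379 and 349 CPM) in the cortex, against 510 to 575, 270 to 282 and 271 to 286 CPM in the other 3. The part of these markers in the KO values was not tested.

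**Figure D5:**
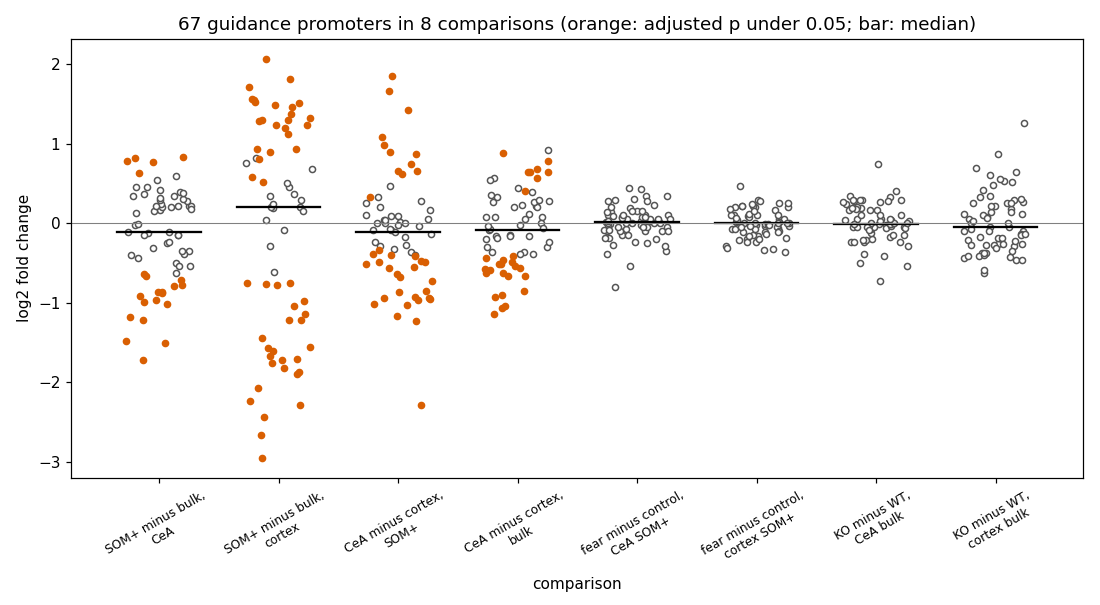
Log2 fold changes (vertical axis) of the 67 guidance promoters in 8 comparisons (horizontal axis), with orange points at an adjusted p under 0.05, open points otherwise and a bar at the median. The gate and region comparisons hold between 22 and 50 called members, and the 2 fear and 2 knockout comparisons hold 0.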

How the data were processed

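The authors deposited read counts per promoter window, of 2000 bases or wider, for all 18 libraries. Per the submitters' processing notes, the build was mm9 and the tools named include Picard 1.88, Bowtie2, MACS2, Trimmomatic 0.32 and bcl2fastq 2.16.0.10. Repeated windows (663 of 26728 entries) were left out. Counts were fitted with edgeR 4.0.16 in R 4.3.3 (TMM, quasi-likelihood F test, minimum count 10 by group and total 15): all 18 libraries for SOM+ against bulk (25246 promoters), 8 for SOM+ nuclei (25157) and 10 for bulk nuclei (25196), with labelled sex as a term in the first and the last. P-values were adjusted by Benjamini-Hochberg over all promoters, and the standard error was derived from the F statistic. DESeq2 1.42.0, limma 3.58.1, other scalings, filters and left-out libraries were alternatives. Scripts were tested on simulated data. Members and lists were chosen with earlier results of these data known. Genes named in each comparison were called members without overlap, up to 8 per direction by p, otherwise the 3 smallest p, plus 18 always reported. Others named were chosen after their values were seen. Replicate numbers were not taken to pair libraries; in SOM+ groups they coincide with sex, which is balanced over the groups and not in that fit. Each SE includes the spread between replicate libraries, which may be technical, and the floors cover counting error only.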

Additional observations from a re-analysis of the deposited data

Results flagged for a closer look

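For 34 of the 67 members the SOM+ minus bulk difference was not the same in CeA as in cortex, by edgeR's interaction test at an adjusted p under 0.05. Values are log2 differences of differences, CeA minus cortex, in control and WT libraries, and a positive value means that SOM+ nuclei stood higher against bulk nuclei in CeA than in cortex. Among receptors of Slits and netrins they were Robo1 2.11, Robo2 1.79, Unc5a -1.72, Unc5c 0.93 and Unc5d 1.0. Among Eph receptors they were Ephb1 1.99, Epha5 1.43, Epha3 1.41 and Epha4 0.86 in the positive direction and Epha2 -1.74, Ephb3 -1.42, Epha8 -1.31, Ephb2 -1.09 and Epha10 -1.03 in the negative one. Among ephrins they were Efnb1 1.29, Efna5 1.24 and Efnb2 0.9 against Efna2 -1.87, Efnb3 -1.51, Efna4 -1.31 and Efna1 -0.96. Among semaphorins they were Sema3a 1.85, Sema3e 1.46, Sema5a 1.3, Sema3d 1.23 and Sema3c 1.16 against Sema4g -1.68, Sema4b -1.09, Sema7a -1.02 and Sema3f -1.02. The plexin Plxna4 -0.89 and the netrins Ntng1 0.97, Ntn3 -1.15 and Ntn5 -1.48 completed them. All 34 kept their direction without the 4 libraries against their labelled sex, where 12 were still called, and with sex read from Y-linked promoters, where 34 were. Cell type markers and enrichment over background moved in the same contrast, and their part was not tested.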

How the results depend on the processing

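Single members were recomputed only where they were called in the main fit or named by rule, so calls gained by other members are not counted. Of these 4713 results, 4174 kept their side of the threshold, 511 lost the call, 25 gained it and 3 reversed. A change of direction was counted as a reversal only where the main or the other fit called the member. Changes of direction with no call in either fit stand among the 4174. For each the cause was not tested. The reversals came with the first window listed: Sema3a -0.19 for the difference between regions and 0.69 in bulk nuclei between regions, and Sema6d 0.06 between regions in SOM+ nuclei. Library totals left 3 members higher in SOM+ nuclei of CeA, and cyclic loess 11 lower for the difference between regions and 16 lower in CeA SOM+ nuclei. Without the 4 libraries against their labelled sex, an alternative chosen after seeing the data, counts were 1 higher and 6 lower for SOM+ against bulk in CeA, 8 and 5 for the difference between regions, and 1 and 5 between regions in bulk nuclei. With sex from Y-linked promoters, also chosen after seeing the data, 10 were lower in CeA. With cortex KO 3 left out and either no sex term or sex from Y-linked promoters, both chosen after seeing the data, KO called 0 members. Leaving out 1 library at a time gave 17 to 20 higher and 22 to 26 lower for SOM+ against bulk, 0 to 3 and 3 to 11 in CeA, 21 to 24 and 24 to 26 in cortex, and 8 to 17 and 9 to 15 for their difference. It gave 11 to 15 and 20 to 26 between regions in SOM+ nuclei, 0 to 10 and 6 to 26 in bulk nuclei, 0 to 9 lower in cortex KO, 0 to 1 lower for KO averaged, and 0 in the other fear and KO counts. Same-numbered deviations correlated from -0.354 to 0.475 over the pairs of groups compared, which include pairs of unlike condition. Between CeA and cortex of the same condition they were -0.309 to 0.288 for KO, 0.410 for WT, 0.192 for SOM+ controls and 0.073 after conditioning. These values do not decide whether same-numbered libraries share animals, and the number was not taken as pairing. Among SOM+ groups number 1 is labelled male and 2 female, so the block is also a sex term. Correlations there were 0.026 to 0.338. With the replicate as a block, 263 of the 264 results for members called or named kept their side of the threshold and 1 gained the call. Over all members the counts were 21 higher and 27 lower for SOM+ against bulk, where the main fit gave 19 and 26. Between regions they were 12 and 27 in SOM+ nuclei, where the main fit gave 12 and 25, and 8 and 20 in bulk nuclei. Members outside the tally thus gained calls too. Depth limits low promoters such as Ntng2, where 3 counts are worth up to 1.13 CPM.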
